A study of Mus musculus with 4 samples.

Results

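The interferon regulatory factor (Irf) genes Irf1, Irf2, Irf3, Irf4, Irf5, Irf7, Irf8 and Irf9 were examined in a map of accessible chromatin from mouse brain parenchymal macrophages. A merged ATAC-seq peak was assigned to one of these genes if its centre lay inside the gene, or if the gene was the nearest protein-coding gene within 100 kb. This gave 82 of the 74695 merged peaks, called sites below, at 7 of the 8 genes. Coordinates are those of mm10, 1-based.

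The 8 genes lie on 6 chromosomes. The interferon-gamma-induced Irf1 spans chr11:53770014-53778374 and Irf2 chr8:46739745-46847458. The factors behind pathogen sensors are Irf3 at chr7:44997648-45002848, Irf7 at chr7:141263183-141266499 and Irf5 at chr6:29526130-29541869, and Irf9, which acts behind the type I interferon receptor, is at chr14:55603985-55610030. The lineage factors are Irf4 at chr13:30749233-30766981 and Irf8 at chr8:120736358-120756694. Irf7 is transcribed from the - strand and the other 7 from the + strand.

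The 4 libraries were 2 of a group labelled MDM and 2 of a group labelled YSM. The series title speaks of monocyte-derived macrophages in the brain, which is how MDM is read here, while YSM is not spelled out. All 4 libraries shared the genotype Ms4a3-Ai9. Ms4a3 is active in the bone marrow progenitors that give rise to monocytes and granulocytes, and Ai9 is a reporter allele for a red fluorescent protein that Cre recombinase switches on. All 4 also shared the treatment label DR-3x, whose meaning stays unexplained. The sources used here do not give the age of the animals, the sorting gate that separated the groups, or whether a group's libraries were from different animals. In ATAC-seq the Tn5 transposase cuts and tags open chromatin, so that a peak marks an accessible region. The deposited intervals hold no level per library, so no replicate spread or test is given and the depth of each library is unknown here. All 10 macrophage marker genes that were looked up, such as Spi1, Csf1r and Cx3cr1, had at least 1 site. Of 4 matched genes each, 1 neutrophil, 3 T cell, 3 B cell, 3 neuron, 4 astrocyte and 4 endothelial markers also had a site, as did 70.3% of all protein-coding genes. The neutrophil genes S100a8, S100a9 and Ly6g, and Cd8a, Cd79a and Syt1, had 0. The oligodendrocyte genes Mbp, Mog and Olig2 had 20, 3 and 3 sites. The marker genes with a YSM-listed site were the astrocyte gene Slc1a3, at 7 of 26 sites, and Mog and Mbp, at 1 each, and 0 had an MDM-listed site.

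IRF proteins bind DNA through a shared tryptophan-rich domain that reads the interferon-stimulated response element (ISRE). IRF3, IRF5 and IRF7 carry the signal of pathogen sensors to the interferon genes, IRF9 carries the signal of the type I interferon receptor, and IRF1 is itself induced by interferon-gamma through a gamma-activated site (GAS), while IRF2 can occupy the same elements as IRF1. IRF4 and IRF8 are lineage factors that bind with PU.1 at composite ETS-IRF elements (EICE), and IRF8 is required for the normal development of monocytes, dendritic cells and microglia.

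A merged peak reached the promoter window of 6 of the 8 genes, and it covered the start base itself at Irf1 and Irf4. The RefSeq promoter table (build GRCm38.p6, the primary chromosomes of mm10) gives windows of 250 bases before to 50 bases after a start site, and holds 11 windows for the 8 genes. A merged peak overlapped a window of Irf1, Irf2, Irf3, Irf4, Irf7 and Irf8, which was 6 of 11 windows, against 37.1% of all 32851 windows. The 3 sequences that follow are shown because they are the promoter bases under a peak, before the start site, in which an interferon-related motif was found. The Irf2 stretch also holds the few bases before the peak that complete its motifs. They are printed 5′ to 3′ on the + strand, the coding strand of these genes, and capitals mark the matches to the GAS letters TTCNNNGAA at Irf1 and Irf8, and to GAS, ISRE and EICE letters at Irf2.
Irf1, chr11:53769877-53770013, + strand: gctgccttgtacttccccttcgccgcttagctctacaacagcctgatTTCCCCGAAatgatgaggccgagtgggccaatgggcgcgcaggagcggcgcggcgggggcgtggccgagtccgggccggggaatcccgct
Irf8, chr8:120736108-120736270, + strand: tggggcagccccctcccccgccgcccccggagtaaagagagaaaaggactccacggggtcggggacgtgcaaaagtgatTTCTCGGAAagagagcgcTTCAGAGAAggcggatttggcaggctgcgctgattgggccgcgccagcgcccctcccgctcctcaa
Irf2, chr8:46739498-46739713, + strand: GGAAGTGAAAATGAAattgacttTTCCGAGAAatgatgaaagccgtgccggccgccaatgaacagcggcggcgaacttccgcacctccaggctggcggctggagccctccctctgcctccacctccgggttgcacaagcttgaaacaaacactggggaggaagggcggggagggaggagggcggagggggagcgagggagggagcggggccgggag

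The Irf1 stretch held 1 GAS match, with its first base 90 bases before the start, and the match lay wholly under the peak chr11:53769877-53770116. The Irf8 stretch held 2 GAS matches, first bases 171 and 153 before the start, both under the peak chr8:120736051-120736270. The Irf2 stretch held a GAS match 224 bases before the start under the peak chr8:46739506-46739713. Upstream of it, an EICE match (GGAANNGAA) at 247 and an ISRE match (GAAANNGAA) at 241 bases before the start overlapped each other and were not wholly under the peak, which begins at the last base of the EICE match. Thus 3 of the 8 Irf genes had a GAS match and 1 had an ISRE match in a promoter window. Counted by window, as in the shares that follow, these were 3 and 1 of the 11 Irf windows.

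Such matches were not rare over the genome. Both strands were searched, and GAS reads the same on both. The GAS letters occurred in 8.3% of all windows and in 6.56% of the windows with a peak, the ISRE letters in 8.56% and 6.99%, and the EICE letters in 8.24% and 7.14%. The letters GAGGAAGT of a PU.1 core (3.2% of all windows), TGACTCA of AP-1 (5.2%) and GGANTTTCC of NF-kB (1.25%) occurred in 0 of the 11 Irf windows. The SP/KLF letters CCGCCC were in 8 of the 11 Irf windows, from 7 genes with Irf7 as the exception, against 35.7% of all windows and 66.4% of those with a peak.

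The stretch before Irf3 held the most subpeaks at any Irf start. The name of a merged peak ends in its subpeak number, which counts the peaks of single libraries joined in it. A number up to 3 means that not all 4 libraries had a call there. A number of 4 or more leaves room for a call in all of them, though 1 library can give several. The peak chr7:44997345-44997628 combined 8 subpeaks and covered 231 bases of the Irf3 window. The window matched CCGCCC 70 bases before the start, under that peak. By its centre it lies inside Bcl2l12, a gene whose span is 9 bp from that of Irf3 on the chromosome. The peak therefore counted as a Bcl2l12 site, and Irf3 was left with 0 sites. Assigned by the nearest start site instead, an alternative chosen after seeing the data, Irf3 had 1 site. The start-site peaks of Irf1, Irf2, Irf4, Irf7 and Irf8 had 4 subpeaks each. Those of Irf4 (chr13:30749178-30749378) and Irf7 (chr7:141266212-141266421) covered 105 and 47 bases of their windows.

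Irf5 and Irf9 had no peak on a promoter window. The Irf9 site, chr14:55604119-55604323 with 4 subpeaks, lay between the 2 Irf9 windows, its centre 236 bp from the nearer start. The Irf5 window, with 74.7% G and C against a median of 52.7% over all windows, lay between a site centred at -2.3 kb from the start (chr6:29524172-29524429, 4 subpeaks) and a site centred 2.6 kb into the gene (chr6:29529044-29529460, 7 subpeaks). The other windows without a peak had 55.3% and 52.7% at Irf9, 54.7% at Irf8 and 75% at Irf1. Windows with a peak ran from 55% at Irf7 to 70% at Irf8.

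The lineage factor gene Irf8 and the IRF1-opposing factor gene Irf2 together held most Irf sites. Each had 28, and their 56 were 68.3% of the 82. Irf1 had 12 sites, Irf5 6, Irf4 5, Irf7 2, Irf9 1 and Irf3 0. Over all 21887 protein-coding genes the median was 2 sites and 29.7% had 0. At 28 sites, Irf2 and Irf8 were among 154 genes with that many or more, and 99.3% of all genes had fewer. For Irf1 94% of all genes had fewer, for Irf5 81.8%, for Irf4 77.2%, for Irf7 47.5% and for Irf9 29.7%. The median over the Irf genes was 5.5, and 5 of the 8 were above the median of all genes. These ranks are descriptions of 1 merged map. Where non-coding genes could also take a peak, Irf8 kept 7 sites, Irf5 3 and Irf1 1, and by nearest start site, among the 17492 genes in the start-site table, Irf2 had 17 and Irf4 12.

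**Figure D1:**
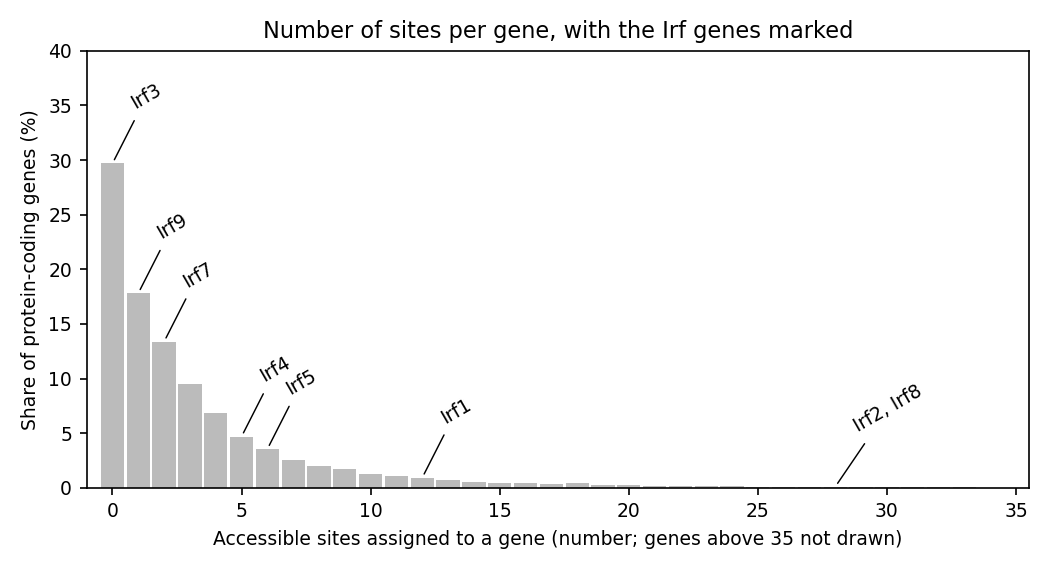
Share of the 21887 protein-coding genes (vertical axis, percent) by number of assigned accessible sites (horizontal axis), with each Irf gene marked at its own number. Irf3 stands at 0, Irf9 at 1 and Irf7 at 2, where most genes lie, and Irf2 and Irf8 both stand at 28 in the far tail.

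Crowded neighbourhoods left some Irf genes little DNA of their own. The stretch nearest to Irf3, including the gene, was 5.3 kb long, that of Irf7 4.8 kb and that of Irf9 10.2 kb, against 203.6 kb for Irf2, 151.4 kb for Irf8, 73.9 kb for Irf1, 48.0 kb for Irf4 and 24.8 kb for Irf5, and a median of 45.8 kb over all genes. Per 10 kb of that stretch Irf7 had 4.15 sites, Irf5 2.42, Irf8 1.85, Irf1 1.62, Irf2 1.38, Irf4 1.04, Irf9 0.982 and Irf3 0. The median over all genes with a site was 0.713. The order therefore differed from that of the plain counts: Irf7, with 2 sites in a short stretch, came first, and Irf2 fell to the fifth place. The value for Irf7 rests on 2 sites and that for Irf9 on 1.

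Counting every merged peak within 100 kb of a gene, whichever gene was nearest, brought the Irf genes closer together. Irf2 then had 41 sites, Irf8 36, Irf3 24, Irf1 22, Irf9 21, Irf5 19 and Irf4 and Irf7 18 each, and all 8 were above the median of 13 over all genes. Within 10 kb Irf2 had 19 sites, Irf8 8, Irf5 6, Irf1 and Irf4 4 each, Irf7 3, and Irf3 and Irf9 2 each, against a median of 3. Irf2 is also the longest of the 8 genes, at 107714 bp, and 15 of its 28 sites lay inside it.

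**Figure D2:**
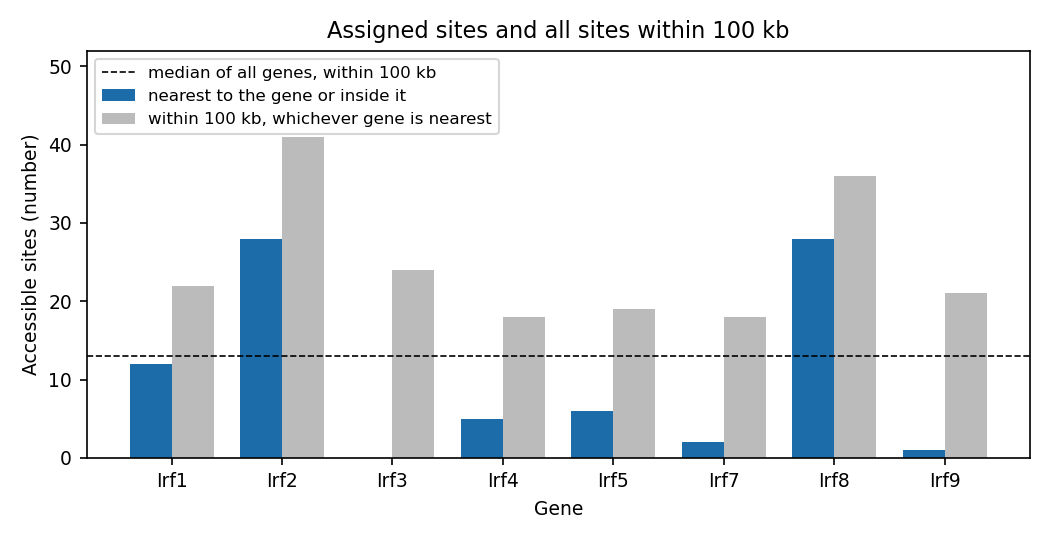
Accessible sites (number) at each Irf gene, as assigned to it (blue bars) and as all sites within 100 kb whichever gene is nearest (grey bars), with the median of all genes for the latter as a dashed line at 13. Irf3 has 0 assigned sites and 24 within 100 kb, and all 8 grey bars are above the line.

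Under this assignment Irf sites lay mostly outside the genes, chiefly because of Irf1 and Irf8, with 0 of 12 and 4 of 28 sites inside. Inside the other genes lay 15 of 28 sites at Irf2, 3 of 5 at Irf4, 3 of 6 at Irf5, 2 of 2 at Irf7 and 1 of 1 at Irf9. A limit of 10 kb left 44 sites and counting non-coding genes left 45, and both settings remove outside sites only. The share inside was not compared with all peaks under them. Of the 82, 28 (34.1%) were inside their gene, 17 upstream and 37 downstream of it in the direction of transcription, while 62.9% of all 71172 assigned peaks were inside a gene. Sites 10 to 50 kb away made up 39% of the Irf sites and 14.2% of all assigned peaks. The median distance of the 54 outside sites from their gene was 21464 bp, against 9881 bp for all assigned peaks outside genes. Within 1000 bp of an end of their own gene lay 9 of 82 sites (11%). Of all assigned peaks 22.6% lay within 1000 bp of an end of any protein-coding gene. That is a wider measure, so these shares are not like for like. No test of these differences was run, since sites of 1 gene share their surroundings, and 56 of the 82 come from Irf2 and Irf8.

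At Irf8 the sites reached far downstream. Of its 28 sites, 18 were downstream of the gene, 6 upstream and 4 inside. The farthest downstream, chr8:120831931-120832210, was centred 95.7 kb from the start and 75376 bp beyond the gene, and the farthest upstream, chr8:120709193-120709409, was centred at -27.1 kb. On the downstream side the next protein-coding gene, Foxf1, begins 327.7 kb away. Non-coding genes lie nearer to many of the 28 sites: where they could take a peak, Irf8 kept 7 and Gm33199 took 11. The most subpeaks, 6, were at chr8:120783757-120784179, 47.6 kb from the start. The 4 sites farthest downstream, from 81.9 to 95.7 kb, had 2 or 3 subpeaks each, too few for a call in all 4 libraries.

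Enhancers downstream of mouse Irf8 are known by their distance from its start: one at +32 kb that BATF3 binds in conventional dendritic cells, one at +41 kb bound by E proteins, and one at +56 kb active in monocytes and dendritic cell progenitors. This comparison was chosen after the sites had been seen, and it goes by distance alone. A site was centred 0.5 kb from the +56 kb position, chr8:120792654-120793056, with 4 subpeaks. Another was centred 0.4 kb from the +32 kb position, chr8:120768582-120768894, with 3 subpeaks. The site nearest to the +41 kb position was 6.6 kb away, and the gap between neighbouring sites there, 14862 bp, was the longest between Irf8 sites. None of these sites was in the YSM or the MDM list.

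Sites at Irf2 filled the gene and a stretch behind it. The 15 inside sites ran from 1.4 to 105.3 kb after the start, and the last of them, chr8:46844805-46845299, had 7 subpeaks and at 495 bp was the widest of all 82. A further 11 sites lay downstream, up to 45644 bp beyond the gene (chr8:46892938-46893267, 4 subpeaks), and 2 upstream. Within the downstream stretch, the 4 sites from 128.7 to 136.4 kb had 1 or 2 subpeaks, and the 5 beyond them, from 141.7 to 153.4 kb, had 4 each. The low-call sites thus sat between sites with a possible call in every library.

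**Figure D3:**
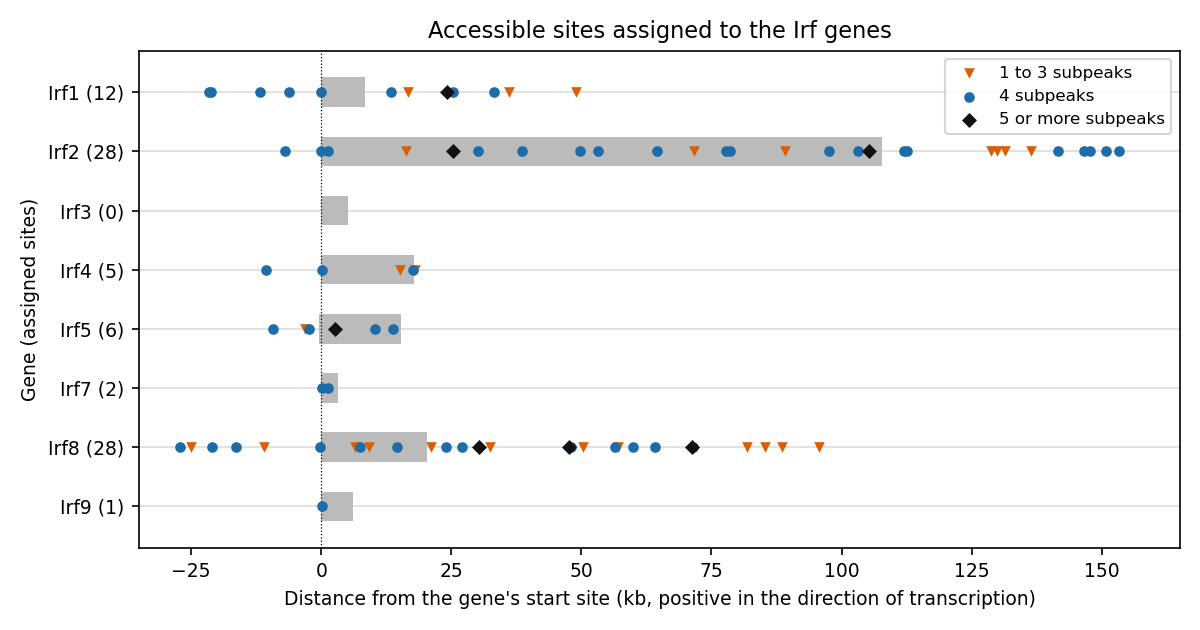
Each assigned site as 1 point by the distance of its centre from the gene's start site (kb, positive in the direction of transcription), with the gene as a grey bar and the subpeak number as the symbol. Irf8 sites run from -27.1 to 95.7 kb with 18 downstream of the gene, Irf2 sites fill the gene and reach 153.4 kb, and Irf1 has sites on both sides and none inside.

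All 12 Irf1 sites had their centre outside the gene, 5 upstream and 7 downstream. The nearest was the start-site peak, centred 18 bp from the gene. The farthest, chr11:53818796-53818996, was 40522 bp downstream with 1 subpeak. The site with the most subpeaks, 7, and a width of 470 bp was chr11:53793921-53794390, 24.1 kb from the start. The 5 upstream sites, which lie towards the interleukin gene Il5, had 4 subpeaks each, and the farthest was centred at -21.7 kb.

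The other Irf genes had short maps. Irf4, whose product works in lymphocytes and in dendritic cells, had 5 sites, of which 3 were at a gene end, and the farthest, chr13:30738520-30738738, was centred at -10.6 kb. Irf5, which acts behind Toll-like receptors, had 3 upstream and 3 inside sites, the farthest being chr6:29517297-29517518, centred at -9.2 kb. Both Irf7 sites were inside the gene, at its start and at chr7:141264981-141265188, 1.3 kb in, and had 4 subpeaks each. Irf7 is the factor that amplifies the type I interferon response once induced.

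Most Irf sites had enough subpeaks for a call in every library. The share with 4 or more was 69.5% (57 of 82, exact binomial 95% interval 58.4 to 79.2%, for counting error only, and peaks are not independent), and 61% had exactly 4. Over all assigned peaks the shares were 58.2% and 46.7%. Sites with a single subpeak were 6 of 82 (7.32%) against 20%. Among the genes with more than 2 sites, 5 of 6 Irf5 sites, 9 of 12 Irf1 sites, 21 of 28 Irf2 sites, 3 of 5 Irf4 sites and 16 of 28 Irf8 sites had 4 or more. By position the share was 82.4% of the 17 upstream sites, 78.6% of the 28 inside and 56.8% of the 37 downstream. Which library lacked a call at a site with fewer is not given by the merged intervals. Sites were 201 to 495 bp wide with a median of 243 bp, against 236 bp over all assigned peaks.

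No Irf site was in either of the authors' differential lists, which are named for a group and give no fold change. The YSM list holds 1.48% of the merged peaks and the MDM list 0.145%, and 0 of the 82 Irf sites were in the first and 0 in the second. At those shares 82 peaks would give 1.21 and 0.119 listed sites, so a count of 0 is near the background and is no result about the Irf genes. Within 100 kb of the 8 genes there were 199 merged peaks, and 0 of them were listed, where the same shares give 2.94 and 0.288. A site outside the lists is not shown to be equally accessible in both groups, because the lists give no values for it. In sorted bulk libraries, fewer cells with an open site and less opening per cell cannot be told apart.

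The listed peaks nearest to the Irf genes are described here by distance alone. These distances were not computed for other genes, so whether they are unusual was not tested. The closest was a YSM-listed peak 137.4 kb from Irf8 (chr8:120598808-120599033, assigned to Gm27021), followed by an MDM-listed peak 319.3 kb from Irf8 (chr8:120416942-120417208, at Gse1). The nearest YSM-listed peak was 512.7 kb from Irf3, 695.2 kb from Irf9 and 717.7 kb from Irf5, and more than 1000 kb from Irf1, Irf2, Irf4 and Irf7. The nearest MDM-listed peak was 1354.3 kb from Irf3, 2873.9 kb from Irf7 and 4693.5 kb from Irf1, and farther from Irf2, Irf4, Irf5 and Irf9. The one nearest to Irf1 was at the interferon-inducible GTPase gene Ifi47, and no link is read from that distance.

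The rest of the interferon pathway was read from 5 lists with 74 genes, of which 72 were matched (Mx1 and Mx2 were not). Of these, 69 had at least 1 site, against 70.3% of all genes, and the median was 4 sites against 2. By nearest start site the number was 56 of 72, against 57.2% of all genes. The start-site table holds 58 of the 72 genes, of which the same 56 had a site, against 71.5% of all genes in that table. All 15 sensor and adaptor genes had sites, with a median of 5, and Traf3 (14) and Tlr4 (10) had the most. The 11 receptor and signalling genes had a median of 7, with 28 at the kinase gene Jak1 and 23 at the interferon-gamma receptor gene Ifngr1. Among the 10 genes for partners of IRF proteins the median was 9, and the corepressor gene Irf2bp2 (24) and the ETS factor gene Ets1 (19) led. Spi1, which encodes PU.1, had 3. The 8 negative regulators had a median of 5, led by Pias1 (22) and Socs3 (12).

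Interferon target genes had the lowest median of the 5 lists. The 28 matched targets had a median of 2, equal to that of all genes, and the highest numbers were at the antigen presentation regulators Ciita (14) and Nlrc5 (12). Isg15, Cxcl10 and B2m had 0 assigned sites. With distance taken from the peak's edge, 71 of the 72 pathway genes had a site. With every gene within 100 kb taking a peak, all 72 did. A count of 0 here therefore does not mean that no accessible site is near. The medians are descriptions, not adjusted for the length of DNA nearest to each gene, and differences between the lists were not tested.

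Listed peaks were at 3 of the 72 pathway genes, or at 10 if every gene within 100 kb takes a peak. The shares over all genes given below belong to the first number. For the second, no share over all genes was computed. The adaptor gene Traf6, which acts between Toll-like receptors and IRF5 or IRF7, had 1 MDM-listed site among 5, inside the gene at chr2:101699187-101699684, with 7 subpeaks. The target gene Ifi47 had 1 MDM-listed site among 8, chr11:49076285-49076665, centred 112 bp from the gene, with 5 subpeaks. Ikbke, which encodes a kinase of IRF3 and IRF7, had 1 YSM-listed site among 5, inside the gene at chr1:131275222-131275436, with 2 subpeaks, so at least 2 libraries had no call there. Over all genes 0.379% held an MDM-listed and 3% a YSM-listed site, and the lists were chosen with earlier results of these data known, so nothing is read from these counts.

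**Figure D4:**
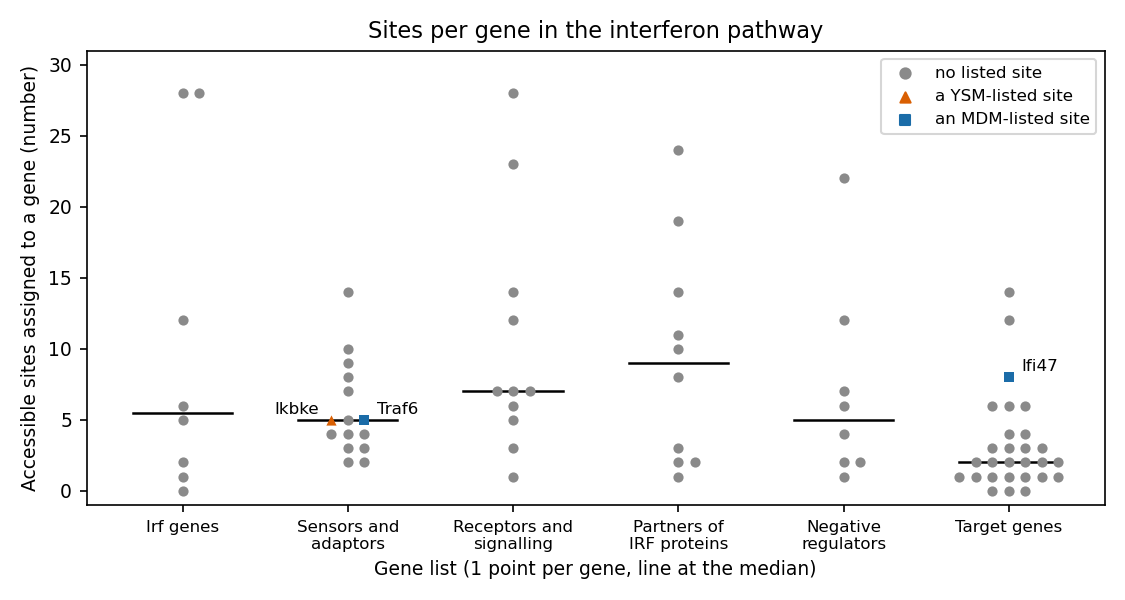
Accessible sites assigned to each gene (vertical axis, number) in the Irf genes and the 5 interferon pathway lists, 1 point per gene, with a line at the list's median. The medians run from 2 for target genes to 9 for partners of IRF proteins, 5.5 for the Irf genes, and the coloured symbols mark Ikbke, Traf6 and Ifi47, which hold a listed site.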

How the data were processed

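Omni-ATAC libraries of sorted mouse brain parenchymal macrophages, 2 labelled MDM and 2 labelled YSM, were processed by the authors with Trimmomatic 0.39, Bowtie2 2.2.5, Picard and HOMER on mm10, per the submitters' processing notes. The authors merged the peaks called in each library with HOMER mergePeaks, per the file headers. The sources used here do not give caller settings, a Tn5 shift or the thresholds of the 2 differential lists, which their names tie to DESeq2. The deposited intervals carry a number per interval of unstated meaning, 1 in all merged peaks, which was not used. Depth per library is unknown from these files.

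Peaks were assigned with Python 3.11.15, NumPy 2.4.6 and SciPy 1.17.1 to 21887 protein-coding genes of the RefSeq table of GRCm38.p6, which gives no exons, so exonic and intronic sites are not told apart. A centre inside several genes counted for each. Strand and start sites came from the RefSeq promoter table, in which all 8 Irf genes matched. The assignment was tested on simulated peaks. Merged peaks with 1 subpeak were all 201 bp wide. Listed peaks were matched by identical coordinates. The members and gene lists were chosen with earlier results of these data known. The text names all 8 Irf genes, sites nearest to and farthest from the start and with the most subpeaks, pathway genes with a listed peak and the 2 genes per list with the most sites; the Irf8 enhancer positions, Il5, Spi1 and the genes with 0 sites were added after their values were seen. Protein sequences were not used here.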

Additional observations from a re-analysis of the deposited data

How the results depend on the processing

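Under 9 alternatives, 106 of 126 values stayed close to those reported and 20 moved, 14 of them numbers of sites at single genes. For shares and medians, close means inside the 95% interval. For counts the label is loose. Irf2, with 28 sites as reported, had 19 with a limit of 10 kb and 41 with every gene within 100 kb taking a peak, and both counted as close. The counts of listed Irf sites are also among the close values. The number of listed Irf sites was 0 under all 9. No listed peak lay within 100 kb of an Irf gene, so the alternatives could not change this number, and it shows nothing about stability. The median of 4 subpeaks was the same, and the share with 4 or more ran from 67.8 to 77.3%, under the 7 that can change them. Keeping only peaks with at least 2 subpeaks can only raise that share, here to 75%. The share over all assigned peaks was not recomputed under these settings, so the difference from it was not tested. With a limit of 10 kb there were 44 Irf sites, with a median distance outside genes of 3932 bp. With genes of every annotated kind, 45 sites were left, since non-coding genes took others: Irf1 kept 1 (the long non-coding gene Gm12216 took 7), Irf5 3 and Irf8 7 (Gm33199 took 11). With every gene within 100 kb taking a peak there were 199 sites, with a median distance of 41261 bp, and 10 pathway genes held a listed peak. The share of all genes with a listed peak was not computed under that setting. By nearest start site, an alternative chosen after seeing the data, Irf2 had 17 sites and Irf4 12, and 56 of 72 pathway genes had a site, since the start-site table holds 17492 of the 21887 genes and 58 of the pathway genes. Sites of 1 gene within 1000 bp of each other, counted once, left 70 of 82. No paired analysis was possible because the intervals hold no value per library, and for the same reason no library could be left out. Without depth, a site below the calling threshold of a library cannot be told from a closed one.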

Other observations

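Several Irf sites lay close together. Of 75 pairs of neighbouring sites of the same gene, 12 were at most 1000 bp apart, 4 each at Irf2 and Irf8, 2 at Irf1 and 1 each at Irf4 and Irf5. The closest pair was at Irf8, 13 bp apart, chr8:120783757-120784179 and chr8:120784193-120784475, and another Irf8 pair, chr8:120807421-120807632 and chr8:120807677-120807948, was 44 bp apart. The site at the +56 kb position of Irf8 had a neighbour 282 bp away, chr8:120793339-120793553, with 3 subpeaks. The median gap over the 75 pairs was 4634 bp.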
